A study of Oryza sativa with 18 samples.

Results

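The genes described here are 47 nuclear genes of rice photosynthesis, taken by their locus identifiers from the 47919 rows of the deposited coding gene table, where all 47 were found. They comprised 14 genes of light-harvesting proteins, 15 genes of photosystem subunits, 7 genes of electron transport and ATP synthase subunits, 4 genes of the Rubisco small subunits and Rubisco activase, 5 genes of Calvin cycle enzymes and 2 regulators, GLK1 (LOC_Os06g24070) and GLK2 (LOC_Os01g13740). The rule is a list of locus identifiers and uses no measured value, although the list was drawn up with earlier results of these data known. The deposited tables give locus identifiers without gene names, so members are called by locus and by group. The series covers the photo-thermosensitive genic male sterile (PTGMS) rice line Wuxiang S (WXS), whose pollen fertility depends on temperature and day length. WXS (F) plants were moved, at a panicle length of about 1 cm, from the field into a climate incubator at about 21 °C with 12 h of light for 3 to 4 weeks and became fertile, while WXS (S) plants stayed in the field above 24 °C with days longer than 12 h and formed no pollen. Young panicles were taken at the formation of the pollen mother cell (FP2 and SP2), at meiosis (FP3 and SP3) and at microspore formation (FP4 and SP4), with 3 RNA-seq libraries in each of the 6 groups. Fertility, temperature, day length, and field or incubator light differed together between WXS (F) and WXS (S) and cannot be told apart.

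Light-harvesting proteins bind chlorophyll and pass absorbed light energy to the reaction centres of photosystem I and photosystem II. The photosystems move electrons from water along a chain of carriers, among them plastocyanin, ferredoxin and ferredoxin-NADP reductase, and the chloroplast ATP synthase uses the proton gradient built on the way. Rubisco fixes CO2, Rubisco activase keeps it active, and the Calvin cycle turns the product into sugar phosphates. Nuclear genes encode only a part of these complexes, and the chloroplast genome encodes the remainder. GLK1 and GLK2 are transcription factors known in rice, maize and Arabidopsis for promoting chloroplast development and the transcription of nuclear photosynthesis genes. In a rice panicle the hulls around each floret become green and photosynthetic as they grow.

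Coding gene counts totalled between 30577833 and 52222861 per library. A gene was tested where it had at least 10 counts in at least 3 libraries of a fit, which 44 of the 47 members did in every fit. It was called at a Benjamini-Hochberg adjusted P below 0.05 together with a log2 fold change of 1 or more in either direction in edgeR's quasi-likelihood test. The labels do not say that the 3 libraries of a group came from separate plants, so P values measure the spread between these libraries. Library 1 of SP2 and library 2 of SP3 had lower summed FPKM (defined below) of the members than the other libraries of their groups. Their FPKM totals over all genes were also the lowest of their groups. These totals were 325186 in library 1 of SP2, against 378717 or more in SP2, and 272659 in library 2 of SP3, against 360421 or more in SP3. In whole panicles, fewer cells of a type and less RNA per cell cannot be told apart.

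The tissue label was checked with 8 genes of floral organ identity and 9 genes of the tapetum and meiotic cells. All 8 floral genes had at least 10 counts in every library. Their summed FPKM (fragments per kilobase of gene and per library depth, the authors' values) was 230 to 244 in FP2 and 293 to 419 in SP2, 249 to 267 in FP3 and 428 to 672 in SP3, and 441 to 478 in FP4 and 492 to 539 in SP4. The summed FPKM of the tapetum and meiosis list was 31.4 to 34.3 in FP2 and 48.2 to 57.8 in SP2, 64.7 to 73.0 in FP3 and 78.6 to 105 in SP3, and 705 to 752 in FP4 and 86.0 to 96.2 in SP4. One gene of this list, LOC_Os11g37280, was listed at 0 counts in some libraries and reached 648 FPKM, the larger part of the FP4 sum. The 9 genes did not move together at P4, where 4 log2 fold changes of FP4 against SP4 were positive and 5 negative, with a median of -0.15. Of these genes 2 were called higher and 3 lower in FP4, against 15.7% and 6.78% of all genes tested. The sums of both lists therefore differed with fertility and stage beside the photosynthesis genes, and the part of both lists in the results below was not tested.

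The summed FPKM of the 47 members was lower in WXS (F) at P2 and higher in WXS (F) at P4. It was 258, 252 and 240 in the FP2 libraries against 394, 513 and 533 in the SP2 libraries. At P3 it was 467, 443 and 443 in FP3 against 641, 453 and 728 in SP3, so that library 2 of SP3 lay within the FP3 range. At P4 it was 1715, 1824 and 1708 in FP4 against 1130, 1199 and 1245 in SP4. By summed FPKM the groups did not overlap at P2 or P4. By share of all coding counts they did not overlap at P3 either, with 0.086% to 0.0902% in FP3 and 0.102% to 0.129% in SP3. The members took 0.0514% ± 0.000983 of all coding counts in FP2 and 0.0782% ± 0.00713 in SP2, 0.0881% ± 0.00213 in FP3 and 0.112% ± 0.0143 in SP3, and 0.328% ± 0.0258 in FP4 and 0.241% ± 0.0215 in SP4 (SD, n = 3 each). From P2 to P4 the mean summed FPKM increased 6.99 times in WXS (F) and 2.48 times in WXS (S). By the mean share of coding counts the increase was 6.38 times in WXS (F) and 3.08 times in WXS (S).

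**Figure D1:**
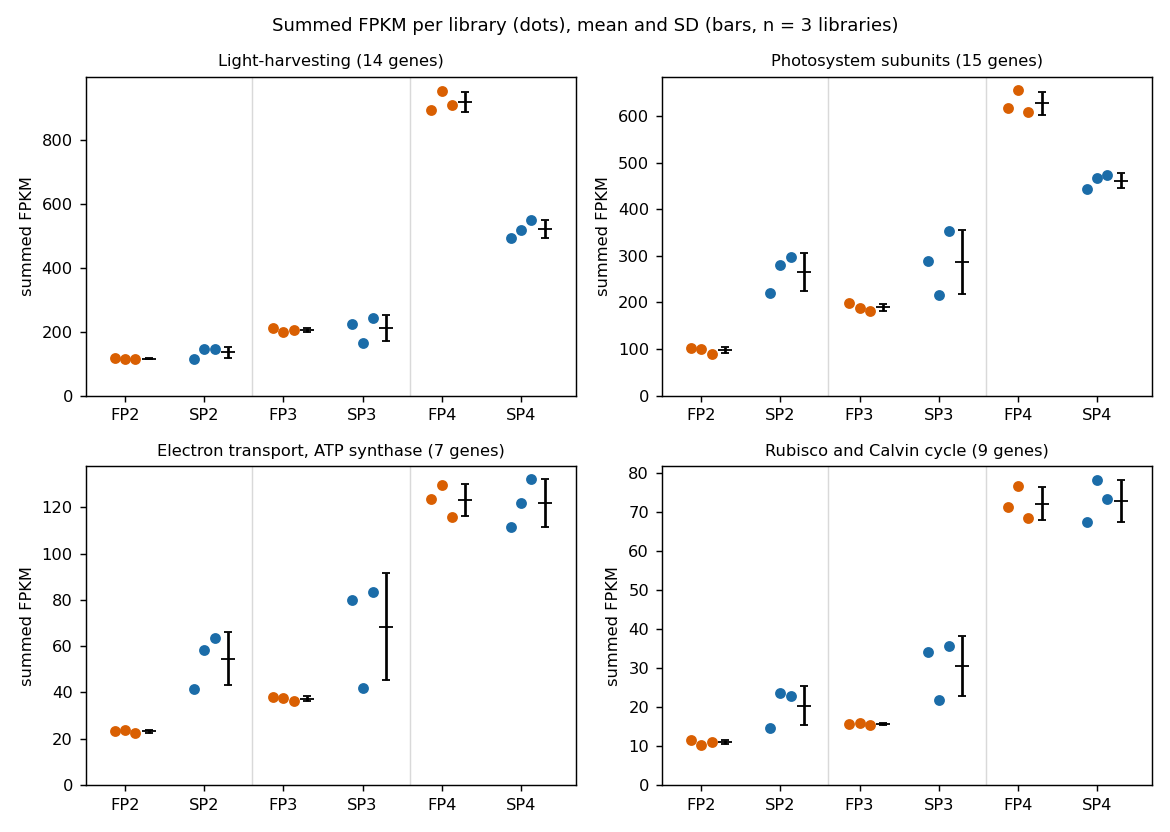
Summed FPKM per library for 4 groups of members (dots; WXS (F) orange, WXS (S) blue) with mean and SD of 3 libraries (black bars), each panel on its own axis from 0. Light-harvesting genes lay at 893 to 953 in FP4 and 492 to 548 in SP4, while Rubisco and Calvin cycle genes lay at 68.5 to 76.7 in FP4 and 67.4 to 78.1 in SP4.

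The separation at P4 lay in the light-harvesting and photosystem genes. Light-harvesting genes summed to 917 ± 31.6 FPKM in FP4 and 519 ± 28 in SP4, and photosystem genes to 628 ± 24.4 FPKM in FP4 and 461 ± 16.2 in SP4 (SD, n = 3 each). Electron transport and ATP synthase genes summed to 123.2 ± 7.03 FPKM in FP4 and 122 ± 10.4 in SP4, a difference smaller than either SD. These sums hide opposite differences. Of the 6 tested genes of this group, 2 were higher and 2 lower in FP4 at an adjusted P below 0.05 with no fold limit. Of all 24724 genes tested, 6978 were higher and 6032 lower by this rule. The mean SP4 sum also holds a mean of 2.99 FPKM of LOC_Os07g32880, which had 8.95 FPKM in library 3 and under 0.01 FPKM in libraries 1 and 2. This gene had too few libraries with 10 counts to be tested. The photosystem genes showed the widest gap at P2, with 97.1 ± 6.26 FPKM in FP2 and 266 ± 40.7 in SP2. One light-harvesting gene, LOC_Os01g41710, held the highest level of all members in FP2, FP3, FP4 and SP4, and made up 20.1% of the summed FPKM in FP4 and 13.5% in SP4. Without it the members summed to 1398 FPKM in FP4 and 1031 FPKM in SP4. Likeness of sequence between members was not checked, and reads shared by near-identical copies could shift levels between loci. In SP2 the photosystem gene LOC_Os07g36080 ranked first with a mean of 73.8 FPKM, and in SP3 the photosystem gene LOC_Os07g04840 with 69.0 FPKM. Levels of under 1 FPKM on average were found for 11 of the 47 members in FP2 and 13 in SP2, and for 4 in FP4 and 4 in SP4.

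At P2, 13 of the 44 tested members were called between FP2 and SP2, 2 higher and 11 lower in FP2. Of all 23759 genes tested at this stage 18.1% were called, 10.3% higher and 7.76% lower in FP2, so the lower share of the members, 25%, was above the background and the higher share, 4.55%, below it. The median log2 fold change of the members was -0.51, against 0.04 over all genes tested. Photosystem genes supplied 5 of the 11 lower calls among their 13 tested members, light-harvesting genes 2 of 14, electron transport and ATP synthase genes 2 of 6, and Rubisco and Calvin cycle genes 2 of 9. Every FP2 library lay below every SP2 library in 22 members (50%) and above in 8 (18.2%), where the background over all genes was 27.5% below and 28% above. With no limit on the fold change, 23 members (52.3%) passed an adjusted P of 0.05, 5 higher and 18 lower, against 40.8% of all genes.

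At P3, 10 of 44 members were called, 3 higher and 7 lower in FP3, against backgrounds of 21.6% called, 14.9% higher and 6.65% lower. The share of members called in all, 22.7%, was near the background, while the lower share, 15.9%, was above it. The median log2 fold change was -0.14 for the members and 0.04 for all genes. Every FP3 library lay below every SP3 library in 19 members (43.2%, background 28.3%) and above in 6 (13.6%, background 29.1%). With no fold limit 21 members (47.7%) passed, 5 higher and 16 lower, against 42.8% of all genes. The higher calls included LOC_Os01g41710 and LOC_Os01g52240 at log2 fold changes of 1.01 and 1.02, at the edge of the limit, and without TMM scaling or with DESeq2 the split was 1 higher and 7 lower. Both of these calls were also lost without library 1 of SP3 (0.98 and 0.95) or library 2 of SP3 (0.80 and 0.92), LOC_Os01g41710 without library 2 of FP3 and LOC_Os01g52240 without library 3 of FP3 (0.94). Without library 1 of SP3 the count was 6, with 1 higher and 5 lower. The floral list moved the same way at this stage, with 5 of its 8 genes called lower in FP3 and a median log2 fold change of -1.06, and its part was not tested.

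At P4, 9 of 44 members were called, 7 higher and 2 lower in FP4. The backgrounds were 22.5% called, 15.7% higher and 6.78% lower, so the share of members called higher, 15.9%, was near the background. The direction was nevertheless common to most members, since 37 of 44 had a positive log2 fold change and the median was 0.43, against 0.00 over all genes. With no limit on the fold change, 27 members were higher and 5 lower in FP4 at an adjusted P below 0.05, or 72.7% of members against 52.6% of all genes. Every FP4 library lay above every SP4 library in 28 members (63.6%, background 31.7%) and below in 5 (11.4%, background 31.3%). All 14 light-harvesting genes had positive values, from 0.12 to 1.82 with a median of 0.81, and 5 of them were called higher.

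**Figure D2:**
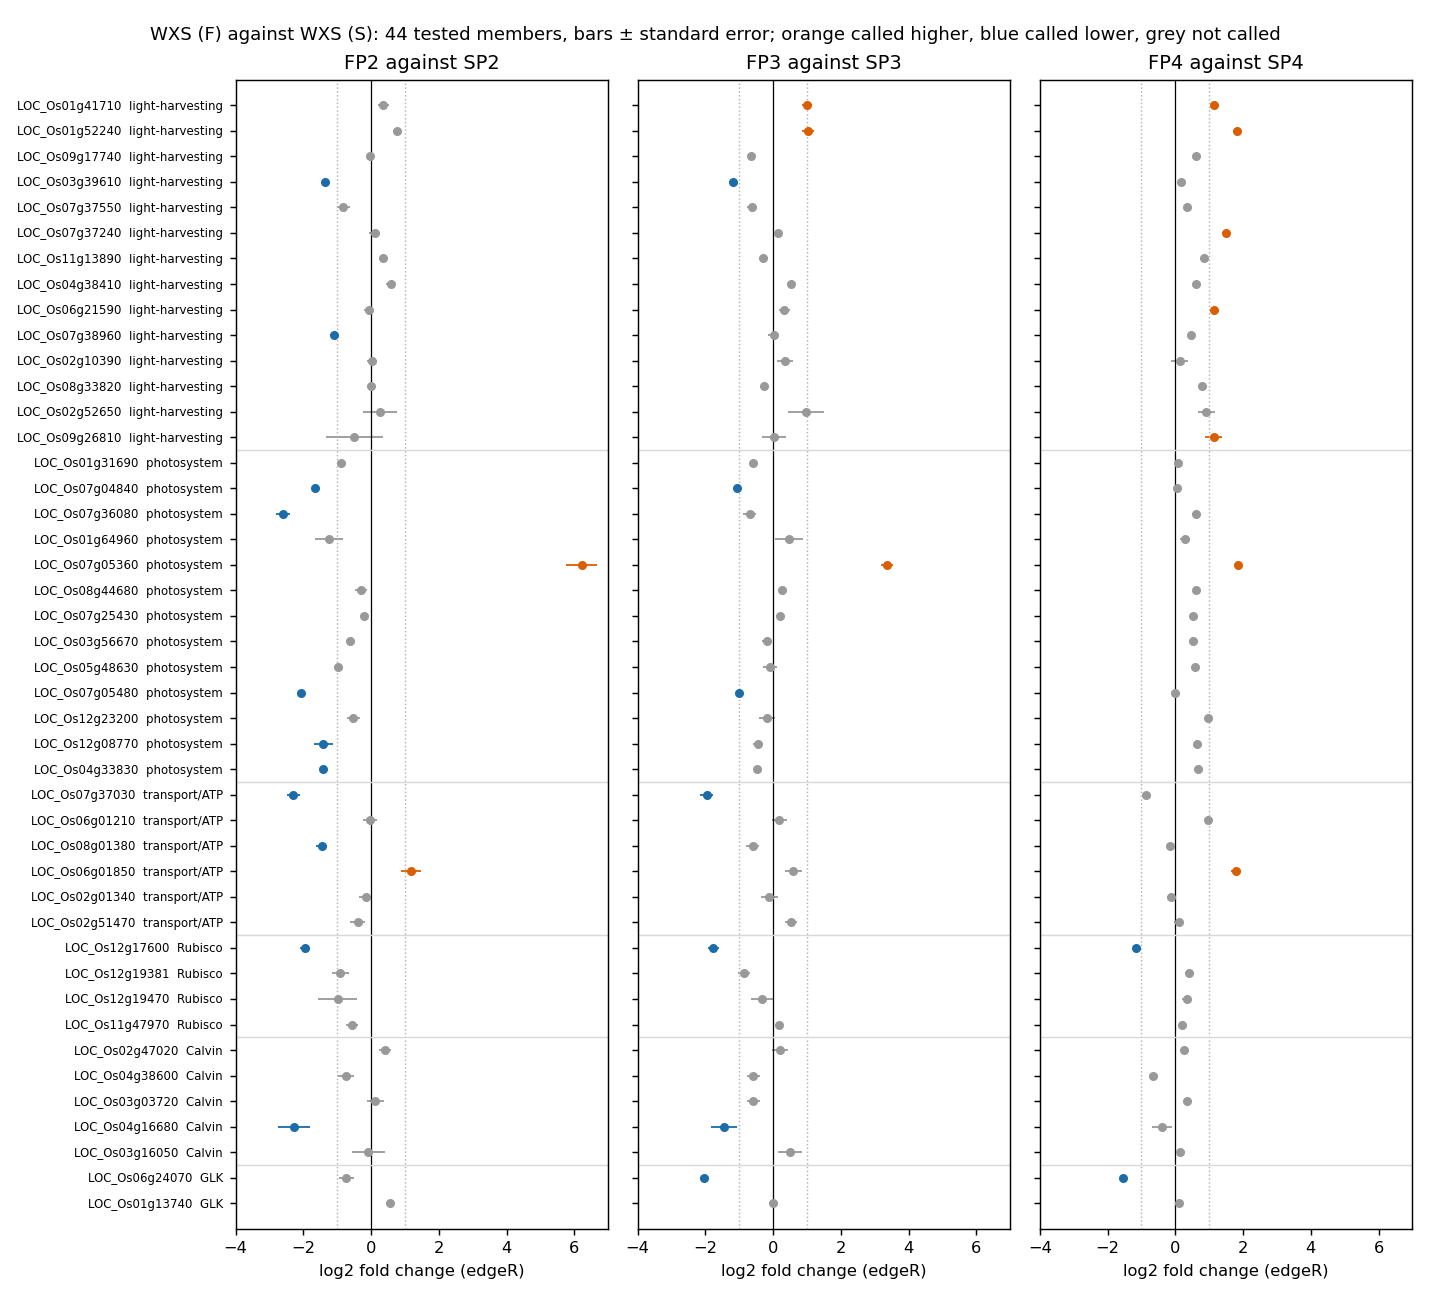
Log2 fold change of WXS (F) against WXS (S) at P2, P3 and P4 for the 44 tested members (dots) with approximate standard errors (bars), in the order of the groups, where dotted lines mark the fold limit. Points lie mostly left of 0 at P2 and right of 0 at P4, while LOC_Os07g05360 lies at 6.22, 3.35 and 1.84 and LOC_Os12g17600 at -1.95, -1.76 and -1.15.

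The log2 fold change of WXS (F) against WXS (S) was negative at P2 and positive at P4 in 25 of the 44 members (56.8%), against 16% of the 22221 genes tested at all 3 stages, and the opposite order was found in 0 members, against 22.5% of genes. It was positive at every stage in 10 members (22.7%, background 26%) and negative at every stage in 7 (15.9%, background 23.2%). These counts use signs alone, also of values near 0, and were not repeated without TMM scaling. Without it LOC_Os06g21590 turned positive at P2 (0.078). LOC_Os07g04840, LOC_Os07g05480 and LOC_Os02g51470 then turned negative at P4 (-0.0483, -0.103 and -0.0175), so these genes left the pattern of negative at P2 and positive at P4. By the call rule, 25 members were called at no stage (56.8%, background 67.9%) and 2 at all 3 stages (4.55%, background 6.32%). Being called lower at P2 and also higher at P4 was found in 0 members and in 0.392% of genes. A test of the stage-by-fertility interaction over the 18 libraries passed an adjusted P of 0.05 in 35 of 44 members (79.5%), against 38.2% of all genes tested. Members past this test included all 13 tested photosystem genes, 10 of 14 light-harvesting genes, 5 of 6 electron transport and ATP synthase genes, 5 of 9 Rubisco and Calvin cycle genes and both regulators. The difference at P4 exceeded that at P2 in 29 members and was smaller in 2, LOC_Os07g05360 and GLK1, at an adjusted P below 0.05, or 70.5% of members in all against 28.7% of genes. The median shift from P2 to P4 was 0.98 on the log2 scale for the members, 1.53 for photosystem genes and 0.92 for light-harvesting genes, and -0.03 for all genes.

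Within WXS (F), 17 of 44 members were called higher in FP3 than in FP2, or 38.6%, and none lower, where of all genes 11.8% were called higher, 5.97% lower and 17.8% in all. Between FP4 and FP3, 40 members (90.9%) were called higher and none lower, against backgrounds of 9.26% higher, 6.14% lower and 15.4% in all. Within WXS (S), 6 members (13.6%) were called higher in SP3 than in SP2, against 5.78% of all genes higher, 4.11% lower and 9.89% in all, and 27 (61.4%) higher in SP4 than in SP3, against 12.6% higher, 6.83% lower and 19.4% in all. No member was called lower at any of these steps by edgeR or by DESeq2. At an adjusted P below 0.05 with no fold limit, 1 member was lower in FP3 than in FP2 and 2 were lower in SP3 than in SP2. Of all 27233 genes tested, 4518 and 3260 were lower at these 2 steps by the same rule. At the steps from P3 to P4, 0 members were lower by this rule. Median log2 changes of the members were 0.84 for FP3 against FP2, 1.95 for FP4 against FP3, 0.52 for SP3 against SP2 and 1.26 for SP4 against SP3. Within each condition the 2 steps share the P3 libraries. The step from P3 to P4 was larger in WXS (F) than in WXS (S) in 22 members and smaller in 1, LOC_Os07g05360, by the test of that difference (52.3% of members against 18.5% of all genes).

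**Figure D3:**
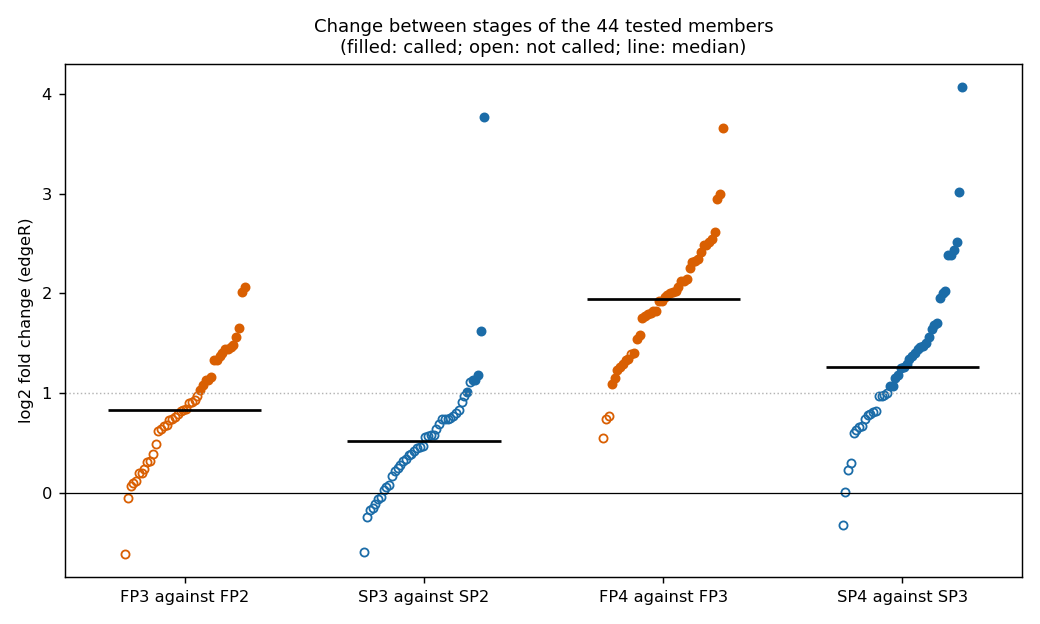
Log2 fold change between consecutive stages for the 44 tested members, WXS (F) in orange and WXS (S) in blue, where filled dots are called, open dots are not and black lines are medians. The medians are 0.84 and 0.52 from P2 to P3 and 1.95 and 1.26 from P3 to P4 in WXS (F) and WXS (S).

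Among the light-harvesting genes, LOC_Os01g41710 had 24.6, 24.4 and 24.5 FPKM in FP2 and 13.9, 23.5 and 22.9 in SP2, a log2 fold change of 0.37 ± 0.17 that did not pass the test (SE, adjusted P = 0.124). At P3 its levels were 64.3, 60.3 and 61.4 FPKM in FP3 and 34.0, 22.0 and 44.1 in SP3. At P4 they were 337, 366 and 349 FPKM in FP4 and 145, 164 and 172 in SP4, higher by 1.15 ± 0.08 on the log2 scale (adjusted P = 4.65e-05). All WXS (F) libraries thus lay above those of WXS (S) at the same stage, also at P2, where the test was not passed. LOC_Os01g52240 had 28.2, 28.3 and 29.1 FPKM in FP4 and 7.14, 7.79 and 9.72 in SP4, a log2 fold change of 1.82 ± 0.12 (adjusted P = 4.17e-05), and its difference grew by 1.05 ± 0.18 from P2 to P4 (adjusted P = 0.00036). LOC_Os07g37240 had 44.6, 49.97 and 45.9 FPKM in FP4 and 16.6, 16.1 and 17.4 in SP4, while at P2 its log2 fold change was 0.11 ± 0.17 (adjusted P = 0.644). The separation of this gene between WXS (F) and WXS (S) was thus seen at P4 and not at P2, and the shift from P2 to P4 was 1.40 ± 0.17 (adjusted P = 1.88e-05).

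Other light-harvesting genes ran against this direction before P4. LOC_Os03g39610 had 9.41, 9.08 and 8.01 FPKM in FP2 and 19.4, 25.7 and 25.7 in SP2, and was lower in FP2 by a log2 fold change of -1.35 ± 0.10 (adjusted P = 0.000222). In FP3 it remained lower at -1.20 ± 0.09 (adjusted P = 0.000209), and at P4 it stood at 0.16 ± 0.06 (adjusted P = 0.0511). LOC_Os07g38960 was called lower at P2 alone, with 5.64, 4.59 and 4.57 FPKM in FP2 and 10.9, 12.2 and 11.4 in SP2 (log2 fold change -1.10 ± 0.11, adjusted P = 0.000635), a call that fell under the fold limit without TMM scaling (-0.96). A steady difference was measured for LOC_Os04g38410, at 0.58, 0.51 and 0.62 on the log2 scale at P2, P3 and P4, which stayed under the fold limit and had no detectable interaction with stage (adjusted P = 0.883). LOC_Os06g21590 was called higher at P4 alone, at 54.7, 60.3 and 58.1 FPKM in FP4 and 24.2, 28.0 and 27.9 in SP4 (1.13 ± 0.08, adjusted P = 7.31e-05). A pair of genes in this group was near the lower end of the levels. LOC_Os02g52650 reached at most 1.07 FPKM in FP4 and 0.61 FPKM in SP4 and was called at no stage, and LOC_Os09g26810 had 1.21, 1.50 and 1.81 FPKM in FP4 and 0.84, 0.53 and 0.51 in SP4 (1.14 ± 0.25, adjusted P = 0.00949). The call of LOC_Os09g26810 at P4 was lost without library 3 of SP4 (0.99) and in one fit of 18 libraries (adjusted P = 0.133), and LOC_Os02g52650 was called higher at P4 without library 1 of SP4 (1.10, adjusted P = 0.0144).

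The photosystem gene LOC_Os07g05360 showed the largest log2 fold change of any tested member in either direction at each stage. At P4 the lead was narrow, 1.84 against 1.82 for LOC_Os01g52240. Its counts were 357, 333 and 423 in FP2 and 8, 5 and 2 in SP2, or 3.03, 3.15 and 3.10 FPKM in FP2 and 0.061, 0.030 and 0.013 in SP2. It had 764, 746 and 639 counts in FP3 and 89, 40 and 70 in SP3. At P4 there were 3905, 4027 and 3855 counts in FP4 and 893, 916 and 1046 in SP4. The groups did not overlap at any stage, and the ratio between them was smaller at each later stage, while the levels were higher in both. The log2 fold changes were 6.22 ± 0.45 at P2 (adjusted P = 0.000191), 3.35 ± 0.18 at P3 (adjusted P = 5.07e-05) and 1.84 ± 0.05 at P4 (adjusted P = 1.85e-06), and the shift from P2 to P4 was -4.38 ± 0.31 (adjusted P = 6.13e-08). Within WXS (S) it was called higher at both steps, by 3.77 in SP3 against SP2 and by 4.07 in SP4 against SP3.

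Of the 13 tested photosystem genes, 5 were called lower in WXS (F) at P2, against 7.76% of all genes. With no fold limit, 8 were lower at an adjusted P below 0.05, against 4635 of all 23759 genes tested. At P4, LOC_Os07g05360 was the 1 photosystem gene called higher, against 15.7% of all genes. With no fold limit, 9 were higher at this stage at an adjusted P below 0.05, against 6978 of all 24724 genes tested. LOC_Os07g36080 had 10.7, 12.2 and 11.1 FPKM in FP2 and 49.96, 81.5 and 90.1 in SP2, the lowest log2 fold change of the members at this stage (-2.60 ± 0.20, adjusted P = 0.000217). At P4 it had 64.9, 69.1 and 70.5 FPKM in FP4 and 41.5, 52.8 and 42.0 in SP4 (0.61 ± 0.12, adjusted P = 0.00565, under the fold limit). Its order was thus turned round, and the shift from P2 to P4 was 3.21 ± 0.27 (adjusted P = 4.61e-07). LOC_Os07g05480 had 7.62, 7.004 and 6.14 FPKM in FP2 and 27.6, 32.8 and 30.9 in SP2 (-2.07 ± 0.10, adjusted P = 4.96e-05). In the P4 libraries it had 41.1, 42.4 and 39.9 FPKM in FP4 and 40.2, 42.2 and 42.1 in SP4, where the groups overlapped (0.00 ± 0.05, adjusted P = 0.971). It was also called lower at P3, at the edge of the fold limit (-1.002), and this call was lost without library 1 or 3 of FP3 (-0.98 and -0.96), without library 1 of SP3 (-0.995) and in one fit of 18 libraries (-0.998). LOC_Os07g04840 followed the same course, with 18.9, 18.7 and 16.2 FPKM in FP2 and 49.9, 59.8 and 65.1 in SP2 (-1.65 ± 0.09, adjusted P = 6.24e-05), and stood at -1.06 at P3 and 0.06 at P4. LOC_Os12g08770 and LOC_Os04g33830 were called lower at P2 alone, at -1.41 and -1.43, and had 0.63 and 0.67 at P4. LOC_Os07g25430 was called at no stage and moved through -0.21 at P2, 0.21 at P3 and 0.52 at P4.

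**Figure D4:**
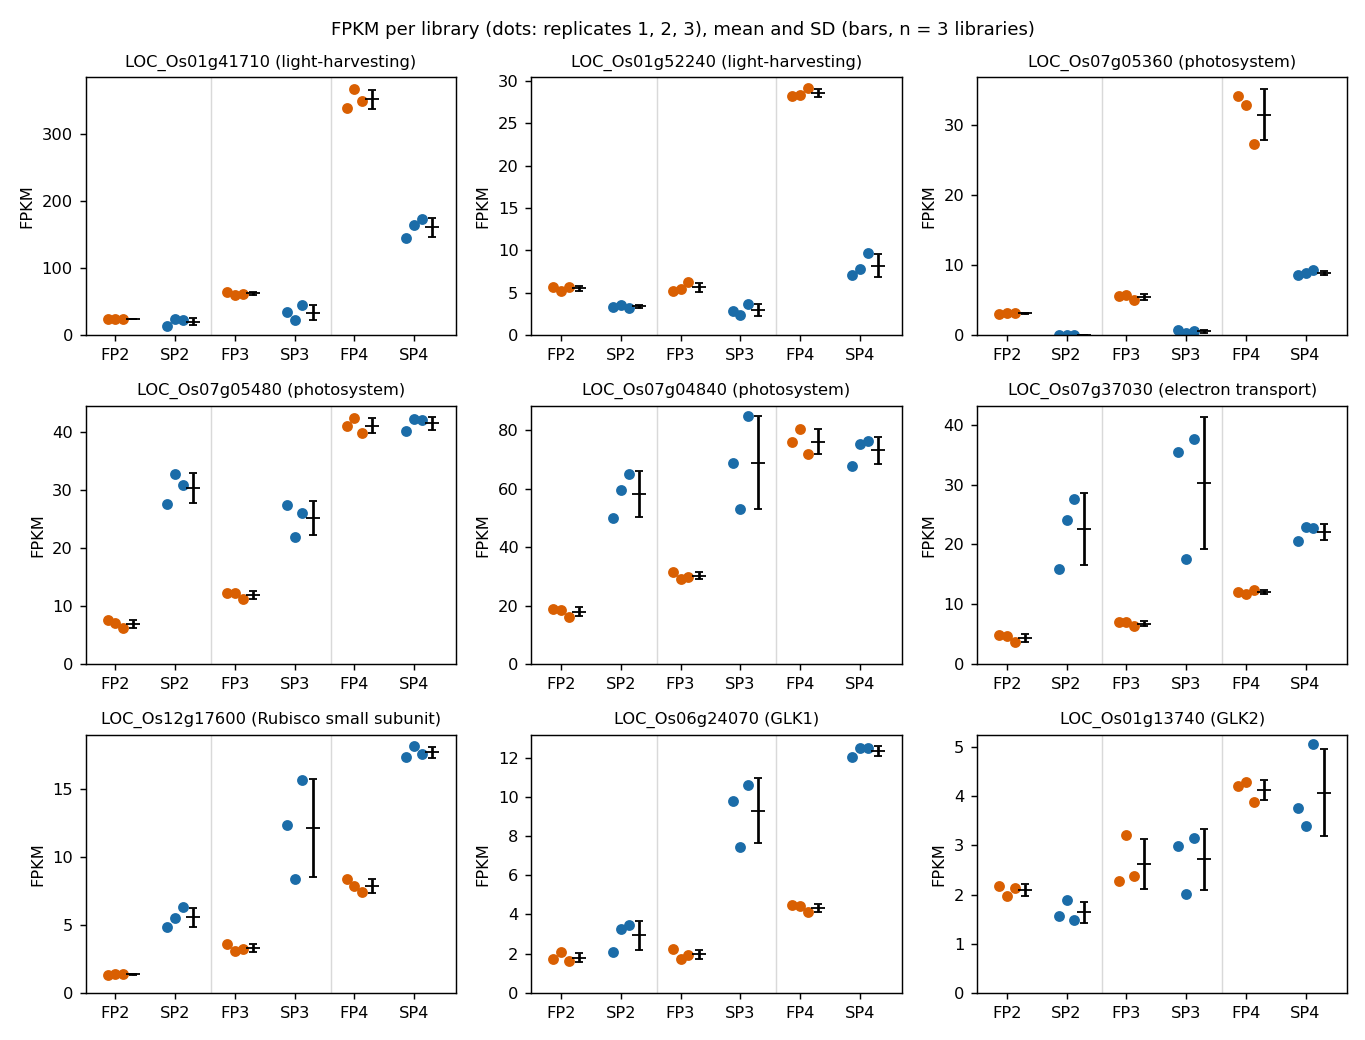
FPKM per library (dots) with mean and SD of 3 libraries (bars) for 9 members, each panel on its own axis from 0, with WXS (F) in orange left of WXS (S) in blue at each stage. The photosystem genes LOC_Os07g05480 and LOC_Os07g04840 are lower in WXS (F) at P2 and P3 and level at P4, while LOC_Os12g17600 is lower in WXS (F) at every stage and GLK1 is apart at P3 and P4.

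The electron transport genes went in both directions. LOC_Os07g37030 had 4.79, 4.61 and 3.64 FPKM in FP2 and 15.9, 24.1 and 27.6 in SP2, 6.98, 7.02 and 6.28 in FP3 and 35.4, 17.5 and 37.7 in SP3, and 12.1, 11.7 and 12.4 in FP4 and 20.5, 22.8 and 22.8 in SP4. WXS (F) lay below WXS (S) in every library of each stage, with log2 fold changes of -2.30 ± 0.18 (adjusted P = 0.000277), -1.96 ± 0.20 (adjusted P = 0.000542) and -0.86 ± 0.07 (adjusted P = 0.000159, under the fold limit). LOC_Os06g01850 ran the other way at a lower level, with 2.07, 1.35 and 1.53 FPKM in FP2 and 0.60, 1.04 and 0.63 in SP2, and 5.02, 4.54 and 4.12 in FP4 and 1.15, 1.55 and 1.27 in SP4. It was called higher at P2 (1.18 ± 0.28, adjusted P = 0.0169) and at P4 (1.79 ± 0.15, adjusted P = 0.000127), and the call at P2 was lost without library 1 of FP2 (adjusted P = 0.0581) or library 3 of SP2 (adjusted P = 0.0588). LOC_Os08g01380 was called lower at P2 alone (-1.46 ± 0.17, adjusted P = 0.00115). For LOC_Os02g01340 the stages P2, P3 and P4 gave -0.16, -0.11 and -0.14 on the log2 scale and none passed the test. The tested ATP synthase gene, LOC_Os02g51470, was called at no stage.

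The Rubisco small subunit gene LOC_Os12g17600 was lower in WXS (F) at every stage. It had 1.33, 1.36 and 1.39 FPKM in FP2 and 4.86, 5.49 and 6.28 in SP2 (log2 fold change -1.95 ± 0.14, adjusted P = 0.000193), and 3.58, 3.07 and 3.26 in FP3 and 12.3, 8.403 and 15.6 in SP3 (-1.76 ± 0.16, adjusted P = 0.000345). At P4 it had 8.36, 7.84 and 7.39 FPKM in FP4 and 17.3, 18.1 and 17.6 in SP4 (-1.15 ± 0.06, adjusted P = 1.79e-05). The difference between this gene and the other small subunit genes was not tested. LOC_Os12g19381 had 3.61, 3.70 and 3.44 FPKM in FP2 and 4.30, 9.83 and 8.38 in SP2, and 26.2, 27.8 and 26.2 in FP4 and 17.3, 24.1 and 19.4 in SP4, with log2 fold changes of -0.91 (adjusted P = 0.0315), -0.86 (adjusted P = 0.00647) and 0.41 at P2, P3 and P4 that stayed under the fold limit. LOC_Os12g19470 was scarce at P2, with 17, 7 and 12 counts in FP2 and 9, 40 and 27 in SP2, and was also called at no stage. Without library 1 of SP2, one of the libraries with low member levels, both genes were called lower in FP2, LOC_Os12g19381 at -1.20 (adjusted P = 0.000721) and LOC_Os12g19470 at -1.41 (adjusted P = 0.0494). LOC_Os12g19470 had the largest change of any member from FP3 to FP4, 3.66 ± 0.39 on the log2 scale (adjusted P = 2.56e-06), and 3.01 ± 0.38 from SP3 to SP4. Small subunit genes form a family of closely related copies, and how reads matching several copies were counted is not given in the sources used here, so the split between these loci is uncertain. Rubisco activase, LOC_Os11g47970, had 11.9, 14.5 and 12.1 FPKM in FP4 and 11.4, 10.6 and 11.3 in SP4, and was called at no stage.

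One of the 5 Calvin cycle genes was called between WXS (F) and WXS (S). LOC_Os04g16680 had 12, 9 and 5 counts in FP2 and 25, 54 and 58 in SP2 (log2 fold change -2.28 ± 0.48, adjusted P = 0.0104), and 42, 46 and 23 counts in FP3 and 157, 57 and 77 in SP3 (-1.47 ± 0.39, adjusted P = 0.0222). At P4 its counts were 260, 325 and 242 in FP4 and 178, 393 and 385 in SP4, where the groups overlapped. Leaving out library 1 or 3 of FP3 or library 1 of SP3 moved its adjusted P at P3 above 0.05 (0.0688, 0.0748 and 0.0555). LOC_Os04g38600 was lower in WXS (F) by similar amounts at each stage, at -0.75, -0.59 and -0.65, under the fold limit. From P3 to P4 all 9 Rubisco and Calvin cycle genes were called higher in WXS (F) and 7 of 9 in WXS (S), against 9.26% and 12.6% of all genes, with medians of 2.31 in WXS (F) and 2.004 in WXS (S) on the log2 scale.

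The regulators differed from each other. GLK1 had 1.72, 2.07 and 1.603 FPKM in FP2 and 2.10, 3.28 and 3.45 in SP2, 2.22, 1.75 and 1.94 in FP3 and 9.81, 7.44 and 10.6 in SP3, and 4.47, 4.41 and 4.11 in FP4 and 12.0, 12.5 and 12.5 in SP4. It was lower in WXS (F) at P3 (log2 fold change -2.05 ± 0.11, adjusted P = 5.14e-05) and at P4 (-1.54 ± 0.05, adjusted P = 3.06e-06), and at P2 the value of -0.73 ± 0.23 was under the fold limit (adjusted P = 0.0409). The libraries of WXS (F) and WXS (S) did not overlap at any stage. In WXS (S) GLK1 was called higher from SP2 to SP3 (1.62 ± 0.15, adjusted P = 1.41e-06), a step at which 6 members were called, and in WXS (F) from FP3 to FP4 (1.09 ± 0.15, adjusted P = 4.48e-05). GLK2 had 4.22, 4.28 and 3.89 FPKM in FP4 and 3.77, 3.39 and 5.07 in SP4, and was called at no stage (0.55, 0.01 and 0.10 on the log2 scale at P2, P3 and P4). Thus at P4 the light-harvesting and photosystem genes had positive medians while GLK1 was lower and GLK2 overlapped between FP4 and SP4.

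Over the 3 stages together, with the stage as covariate, 8 of 44 members were called between WXS (F) and WXS (S), 3 higher and 5 lower in WXS (F), and the share of 18.2% was near the background of 19.3% (13.5% higher and 5.83% lower). The members called higher were LOC_Os01g52240, LOC_Os07g05360 and LOC_Os06g01850, and those called lower were LOC_Os07g05480, LOC_Os07g37030, LOC_Os12g17600, LOC_Os04g16680 and GLK1. The call of LOC_Os07g05480 (-1.02) was lost when any single library of FP2 or SP2 was left out (-0.98 to -0.91), and LOC_Os07g36080, at -0.87 with all libraries, was called lower when any single library of SP4 was left out (-1.05 to -1.01).

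Genes of neighbouring pathways, were described from lists that exclude the members. From FP3 to FP4, 2 of 7 other Calvin cycle genes, 2 of 5 other photosystem and electron transport genes, 5 of 11 genes of chlorophyll synthesis and 4 of 6 genes of photorespiration were called higher, against 9.26% of all genes, with medians of 0.72, 0.81, 0.95 and 1.32 on the log2 scale. From SP3 to SP4 the counts were 2 of 7, 3 of 5 and 6 of 11 higher, against 12.6% of all genes, and of the photorespiration genes 1 of 6 was called, lower in SP4, against 6.83%. Between FP4 and SP4 the chlorophyll synthesis genes had a median of -0.02 and lay between -0.73 and 0.80, where the 14 light-harvesting genes had a median of 0.81. The other photosystem and electron transport genes had a median of -0.07, with 1 positive and 4 negative values. For the other Calvin cycle genes the median was 0.26, with 6 positive values and 1 negative. Photorespiration, which recycles the product of the oxygenase reaction of Rubisco, had 1 of 6 genes called higher in FP4, against 15.7% of all genes, and a median of 0.54. At P2 the medians for FP2 against SP2 were -0.26 for other Calvin cycle genes, -0.44 for other photosystem and electron transport genes, -0.36 for chlorophyll synthesis and -0.43 for photorespiration. Of the other Calvin cycle genes 2 of 7 were called, 1 higher and 1 lower in FP2. In the order above, 1 of 5, 2 of 11 and 0 of 6 genes of the remaining lists were called, all lower in FP2. Of all genes 18.1% were called, 10.3% higher and 7.76% lower. The differences between these lists and the members were not tested.

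The remaining 3 members were too low to be tested. LOC_Os08g02530 was listed at 5, 1 and 3 counts in FP4 and at 0 in the other 15 libraries. LOC_Os09g30340 was listed at exactly 1 count in each of the 18 libraries, a pattern of at least 15 such libraries that 66 genes of the table show. LOC_Os07g32880 had 1 or 2 counts in 16 libraries, 358 in library 3 of SP3 and 932 in library 3 of SP4. Of all values of 1 in the table, 18.1% had an FPKM that corresponds to less than 0.1 of a read, so a count of 1 was not read as detection.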

How the data were processed

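Strand-specific, rRNA-depleted libraries were mapped by the authors with HISAT2 and assembled with StringTie 1.3.1. The deposited coding gene counts are whole numbers without normalization, and the deposited FPKM values were scaled by the authors for length and depth. The counting tool is not given in the sources used here. Each count column carries a library name, and 0 columns were unmatched. Rows that name new genes (2504) were kept in library sizes and tests. Tables of lncRNAs and circRNAs were not used here.

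Counts were tested with edgeR 4.0.16 (TMM, quasi-likelihood test, R 4.3.3, with limma 3.58.1 loaded), per stage on 6 libraries, and on 18 libraries for the stage covariate, the stage changes and the interaction (2 degrees of freedom). P values were adjusted by Benjamini-Hochberg over all coding genes tested. The interaction was called at an adjusted P below 0.05 with no fold limit. The log2 fold change over the root of the F statistic gave an approximate standard error. FPKM served for levels between genes. Members and lists were chosen with earlier results of these data known, and the placing of identifiers in groups follows the order of the list and general knowledge. GLK1, GLK2, Rubisco activase and the Rubisco small subunit were checked against RefSeq names by chromosome. Per-library values are given for the 2 members of each of 9 role classes with the smallest P in the stage-covariate fit, the small subunits, the regulators and members called against the direction of most, and other members were added after their values were seen. Same-numbered libraries did not deviate together (r from -0.0155 to 0.00981 in 9 pairs, 0 over 0.1), so no block was used. Alternatives were DESeq2 1.42.0, no TMM, no filter, a replicate block, one fit of 18 libraries, other thresholds, and each library left out. The procedure was tested on simulated data. Figures were drawn with matplotlib 3.10.9 in Python 3.11.15. Motif and protein descriptions and a list by RefSeq product were planned and not run.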

Additional observations from a re-analysis of the deposited data

Results flagged for a closer look

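Among 29 members named (19 by the rule for named members and 10 after their values were seen), the difference between WXS (F) and WXS (S) changed with the stage in 23, by edgeR's interaction test over 18 libraries with Benjamini-Hochberg adjustment over all genes tested. Of all 27233 genes tested 38.2% passed, and of all 44 tested members 35 (79.5%). The named members were chosen in part by their values in these data, so the count of 23 only describes them. Adjusted P was 3.6e-09 for LOC_Os07g05480, 3.62e-08 for LOC_Os07g04840 and 1.53e-07 for LOC_Os07g05360, all photosystem genes. For other photosystem genes it was 2.52e-09 for LOC_Os04g33830, 1.17e-06 for LOC_Os07g36080, 9.98e-05 for LOC_Os12g08770 and 0.000617 for LOC_Os07g25430. In the light-harvesting group it was 0.00064 for LOC_Os01g52240, 0.000862 for LOC_Os06g21590, 0.0171 for LOC_Os01g41710, 1.36e-05 for LOC_Os07g37240, 2.36e-07 for LOC_Os03g39610 and 1.65e-05 for LOC_Os07g38960. The electron transport genes LOC_Os07g37030, LOC_Os06g01850 and LOC_Os08g01380 had 0.000673, 0.027 and 0.0011, and the ATP synthase gene LOC_Os02g51470 had 0.0337. For the Rubisco small subunit genes LOC_Os12g17600 and LOC_Os12g19381 it was 0.00255 and 0.00248, for Rubisco activase (LOC_Os11g47970) it was 0.00183, and for the Calvin cycle gene LOC_Os04g16680 it was 0.0408. Among the regulators, GLK1 (LOC_Os06g24070) had 0.000722 and GLK2 (LOC_Os01g13740) had 0.0369. The test does not give a direction. The difference moved up from P2 to P4 by 2.08 on the log2 scale in LOC_Os07g05480 and by 1.71 in LOC_Os07g04840, and moved by -4.38 in LOC_Os07g05360 and by -0.81 in GLK1.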

How the results depend on the processing

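Under DESeq2, no TMM, no filter, a replicate block and one fit of 18 libraries, or the removal of library 1 of SP2 together with library 2 of SP3 (chosen after the data were seen), members called numbered 12 to 14 at P2, 8 to 10 at P3, 8 or 9 at P4, 8 or 9 over the stages, 14 to 17 for FP3 against FP2, 39 to 41 for FP4 against FP3, 6 or 7 for SP3 against SP2, 24 to 27 for SP4 against SP3 and 29 to 36 for the interaction, as far as each alternative applies. The replicate block, whose numbers did not pair the libraries, gave 12, 10 and 9 members at P2, P3 and P4 and 33 for the interaction. With no fold limit 23, 21 and 32 members passed at P2, P3 and P4. Leaving out 1 library gave 12 to 19 at P2 (highest without library 1 of SP2), 6 to 10 at P3 (lowest without library 1 of SP3), 8 to 10 at P4, 7 to 9 over the stages, 14 to 17, 38 to 41, 4 to 7 and 27 to 30 for the stage changes in the order above, and 30 to 35 for the interaction. Without TMM the median of all genes moved by 0.14 for FP2 against SP2, -0.11 for FP4 against SP4 and -0.10 for FP3 against FP2.

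Alternatives for single genes were run for the 29 named members, and the signs that turned there were of uncalled values. Without TMM these were LOC_Os06g21590 at P2 (0.078), LOC_Os01g13740 at P3 (-0.0181) and at P4 (-0.0069), LOC_Os07g38960 at P3 (-0.0162), and at P4 LOC_Os07g04840 (-0.0483), LOC_Os07g05480 (-0.103) and LOC_Os02g51470 (-0.0175). LOC_Os01g13740 at P3 was -0.0371 with DESeq2 and -0.0179 with no filter, LOC_Os07g38960 at P3 was -0.0263 and -0.0108 under the same settings, and LOC_Os09g26810 at P3 was -0.0028 with DESeq2. LOC_Os07g05480 at P4 was -0.0192 with no filter and -0.0064 in one fit of 18 libraries. Leaving out 1 library gave -0.251 to 0.0579 for LOC_Os06g21590 and -0.0884 to 0.503 for LOC_Os02g52650, -0.0883 to 0.203 for LOC_Os07g37240 and -1.03 to 0.377 for LOC_Os09g26810 at P2, -0.132 to 0.130 for LOC_Os01g13740, -0.190 to 0.148 for LOC_Os07g38960, -0.258 to 0.202 for LOC_Os09g26810 and -0.380 to 0.0782 for LOC_Os02g01340 at P3, -0.0192 to 0.0507 for LOC_Os07g05480 at P4, and for LOC_Os02g51470 -0.0103 to 0.186 at P4 and -0.0056 to 0.179 over the stages. The cause was not tested. LOC_Os01g41710 and LOC_Os01g52240 at P3 fell under the fold limit without TMM (0.97 and 0.99), with DESeq2 (0.96 and 0.98) and with no filter (0.98 and 1.00). LOC_Os06g01850 at P2 lost its call under the block (adjusted P = 0.0542). Members with at least 10 counts in fewer than 3 libraries could not be tested.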
